A study of Parasteatoda tepidariorum with 16 samples.

Results

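*g4238* is the gene model of the house spider *Parasteatoda tepidariorum* whose product name in the deposited table is that of the Ets factor with a SAM pointed domain (SPDEF-like). It was taken by its model name, and this gave 1 of the 27990 gene models in the table. It is described over all 16 RNA-seq libraries, beside 17 other gene models of the Ets family. Of these 17, 5 have Ets or ETS as a word in the product name, 6 have it in lower case (C-ets-1, C-ets-2, pokkuri), and 6 carry another name of the family (Fli, E74 or ERG). The study is a search for transcripts that are local to regions of the early spider embryo. Cells were sucked with glass capillaries from wild-type embryos of the Osaka isolate, and no group carries a mutation or a treatment. The 7 groups are central (c), intermediate (i) and peripheral (p) cells at stage 3, 20 h after egg laying (2, 3 and 3 libraries), c and p cells at stage 4, 28 to 29 h after egg laying (2 libraries each), and c and p cells at early stage 5, 31 to 32 h after egg laying (2 libraries each). Each library came from a small pool of 10 to 100 cells, whose cDNA was amplified by PCR. Eggs of 4 mothers were used. The c and p cells of stage 3 shared a mother, the i cells had another, and stages 4 and early 5 had their own. Stage and mother can therefore not be told apart, nor can i cells and their mother.

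Ets proteins bind DNA through a winged helix domain that recognises a GGA core, and many of them are activated or released by phosphorylation at the end of the Ras-ERK cascade. A subset also has a pointed (SAM) domain, through which Ets proteins bind each other or the kinase. The gene *g4238* is known as *Pt-Ets4* and is the counterpart of *Drosophila* Ets98B and of mouse SPDEF, a regulator of secretory epithelial cells. The centre of the germ disc is the embryonic pole, where the disc closes a blastopore and where the cumulus forms, the group of cells that later migrates to the rim and sets the dorsal side.

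In the assembly Ptep_1.0 its model spans 28356 bases of scaffold 540 (plus strand, start 171886, end 200241). The counts and RPKM together give a counted length of 3064 bases. The only stretches of this gene that the files at hand spell out are the ends of the fragments that were cloned for its knockdown. They are shown because they fix which transcript was targeted. Each primer is written from its 5′ end, and the capitals mark the EcoRI site used for cloning.
first forward primer: gGAATTCgcccaactctatacgacagtcc
reverse primer of the pilot screen: gGAATTCctcggactgagtcttcgatctt
alternative reverse primer: gGAATTCgcgtatagtatatctccaccat
second forward primer: gGAATTCacatgcagacgtgtgctcc
second reverse primer: gGAATTCtttcagccgctgaaggcac
The first forward primer served for 2 of the fragments, and each primer carries 19 or 22 bases after its site.

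Total counts on genes ranged from 4566853 to 10500376 per library, and levels are given as CPM, which are counts scaled by TMM to a common library size. A count of 0 allows up to 3 counts, which is 0.255 to 0.773 CPM depending on the library. Such limits, and the counting intervals below, cover counting error only, since reads amplified by PCR are not independent molecules. The labelled regions were set beside markers. *Pt-twist* here means *g14287*, after its product name, twist-related protein 2-like. The text of the paper does not equate *g14287* with *Pt-twi*, its marker of peripheral mesoderm. The 3 c-cell markers (*Pt-twist*, *g16467* and *g132*) summed to 48.1 to 284 CPM in the 4 c libraries of the later stages and to 0 to 0.346 CPM in the 4 p libraries. At stage 3 they summed to 314 and 1006 CPM in c and to 0 to 0.0885 CPM in i and p libraries. These genes came from the study's own lists of regional genes, *Pt-twist* and *g16467* from the stage-3 libraries and *g132* from the later stages too, so that their stage-3 levels are no check of the labels, nor are those of *g132* at the later stages. The 3 p-cell markers (*Pt-hh*, *Pt-lab1* and *Pt-opa*) summed to 463 to 1292 CPM in the p libraries and 22.0 to 84.7 CPM in the c libraries of the later stages. At stage 3 these p markers did not separate the regions, with 219 to 523 CPM in p, 335 to 443 CPM in c and 284 to 746 CPM in i libraries. *Pt-hh* and *Pt-lab1* were known before as regional genes, but the study's lists from the later stages also hold them. Their levels at the later stages are thus no wholly independent check of the labels. Alpha-catenin, which every cell of the sheet uses, had no count in stage-3 i2 and stage-4 p1. Stage-4 p2 stood apart from p1 by its endoderm transcripts, since *fuchi* and *g20850* summed to 596 CPM in p2 and 37.5 CPM in p1. In pools of cells, fewer cells of a type and less RNA per cell cannot be told apart.

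*g4238* was abundant in all 6 c libraries and near the detection limit in the other 10. At stage 3 it had 948 CPM in c1 and 1727 CPM in c2. The 3 p libraries of that stage had 0.265, 0.393 and 0.596 CPM, from 3, 4 and 7 counts. None of the 3 i libraries had a count. Both c libraries thus stood above every i and p library. The study chose this gene on these 8 libraries, so the stage-3 levels are given without a test. Apart from these libraries, the paper reports in situ signal of *g4238* at the embryonic pole of stage-3 embryos. In its time course of whole embryos, the transcript rose to a peak at stage 4. The c mean of 1338 ± 551 CPM (SD, n = 2) was 3175-fold the p level pooled over the 3 p libraries, with a counting interval (95%, exact Poisson, on the p counts) of 1892 to 5808. Against i cells it was at least 3523-fold higher, taking 3 counts per i library as the floor. The study's lists from the later stages also name *g4238*, so the tests below repeat its comparison of c and p cells on the same libraries.

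At stage 4, *g4238* had 2269 CPM in c1 and 618 CPM in c2, against 0.519 CPM (3 counts) in p1 and 0.491 CPM (4 counts) in p2. The c libraries lay far above both p libraries, but they differed from each other 3.67-fold. The log2 difference between c and p cells was 11.39 (standard error 1.20, edgeR quasi-likelihood test, adjusted p = 3.25e-17), the lowest p of the 10074 genes tested. In this comparison 0.486% of genes passed the threshold of 0.05. The result rested on having 2 p libraries, since the adjusted p was 0.0697 without p1 and 0.350 without p2, with log2 differences of 11.46 and 11.27. The c mean was 2871-fold the pooled p level (counting interval 1394 to 7142).

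At early stage 5, *g4238* had 422 CPM in c1 and 403 CPM in c2. The p libraries had 1.28 CPM (6 counts) in p1 and 0.192 CPM (1 count) in p2. The groups again did not overlap, and c1 and c2 were within 1.05-fold of each other. The log2 difference between c and p cells was 9.09 (standard error 0.70, edgeR quasi-likelihood test, adjusted p = 0.00114), the lowest p of 11825 genes, of which 0.812% passed the threshold. Without any 1 of the 4 libraries the adjusted p was 0.0582 (without p2) to 0.398 (without c2), with log2 differences of 8.28 to 10.82. The c mean was 584-fold the pooled p level (counting interval 283 to 1451).

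**Figure D1:**
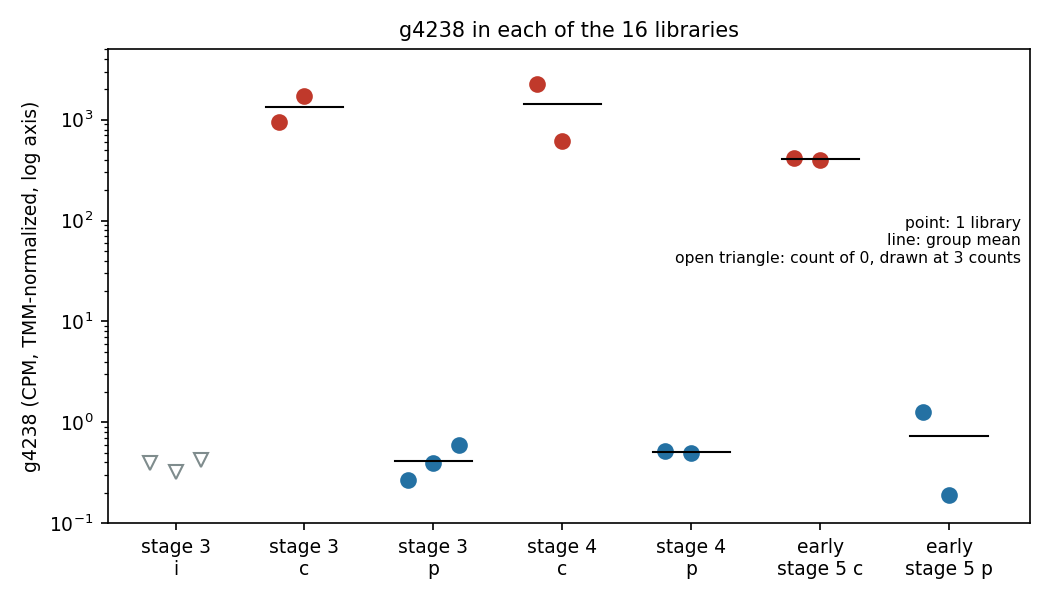
*g4238* in CPM on a log axis in the 7 groups, with 1 point per library and a line at each group mean. The 6 c libraries lie between 403 and 2269 CPM, the 7 p libraries at 1.28 CPM or less, and the 3 i libraries, drawn as open triangles at the level of 3 counts, had a count of 0.

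By rank within a library, *g4238* was among the most abundant transcripts of the c cells. Per length, as the authors' RPKM, it ranked 249 in c1 and 149 in c2 of stage 3, 151 and 557 at stage 4, and 693 and 718 at early stage 5. The 6 c libraries had counts on 6711 to 11382 genes. In RPKM it had 340 and 614 at stage 3, 691 and 167 at stage 4, and 118 and 115 at early stage 5. The ranks were lower in the abundance order at early stage 5 than in the c libraries of the earlier stages.

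The group means of *g4238* fall in the order of stage-4 c (1444 ± 1167 CPM, SD, n = 2), stage-3 c (1338 ± 551 CPM) and early stage-5 c (412 ± 13.9 CPM). Stage-4 and stage-3 c cells did not differ beyond their spread, with a log2 difference of 0.11 (standard error 0.43, edgeR quasi-likelihood test over the 16 libraries, adjusted p = 1.0). That difference turned to -1.11 without stage-4 c1 and to -0.26 without stage-3 c1. In this comparison 3.77% of the 13511 genes tested passed. The study chose *g4238* for its high stage-3 c levels, so a fall from stage 3 is favoured by that choice. From stage 4 to early stage 5 the level fell by 1.80 on the log2 scale (standard error 0.48, adjusted p = 0.0437), where 0.363% of genes passed. The size of this fall rested largely on stage-4 c1. Without it the log2 difference was -0.58 (adjusted p = 1.0), and the call was also lost without either early stage-5 c library (adjusted p = 0.980 without c1 and 1.0 without c2). With only the 2 c groups in the fit the adjusted p was 0.529. The early stage-5 c libraries lay below all 4 earlier c libraries, while the difference from stage 3 to early stage 5 itself was not tested.

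The spread between the 2 c libraries of a stage was read against other abundant genes. At stage 3, c2 exceeded c1 1.82-fold, and 27.7% of the 1961 genes with a mean of at least 100 CPM were as far apart or farther. At stage 4, c1 exceeded c2 3.67-fold, and only 5.88% of 1889 genes were as far apart, with a median of 1.48-fold over these genes. At early stage 5, 86.8% of 1845 genes were as far apart as *g4238* or farther.

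The groups of p libraries followed with means of 0.734 ± 0.766 CPM at early stage 5 (n = 2), 0.505 ± 0.0196 CPM at stage 4 (n = 2) and 0.418 ± 0.167 CPM at stage 3 (n = 3). Their ranges overlap, and with 1 to 7 counts per library no order could be read at this depth. The c-p difference of early stage 5 minus that of stage 4 was -2.28 on the log2 scale, which did not pass the test (adjusted p = 1.0). No gene passed edgeR's quasi-likelihood test of this change (0% of 13511 genes), and 69 genes had an unadjusted p under 0.05. DESeq2's Wald test called 181 genes and edgeR's likelihood ratio test 8, and *g4238* was not among them. The c-cell markers were also at 0 to 0.346 CPM in the p libraries, so that their summed level and that of *g4238* were both near the floor there. The source of the few *g4238* counts in p libraries was not tested.

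In the p libraries, *g4238* did not follow *fuchi*, the GATA-like endoderm gene *g26874* that is used on both sides of the embryo. *fuchi* had 65.9, 48.6 and 60.4 CPM in the stage-3 p libraries and 37.5 CPM in stage-4 p1. It reached 512 CPM in stage-4 p2 and 290 CPM in early stage-5 p2, where *g4238* was at 0.491 and 0.192 CPM. In c cells both were abundant. Each was higher in c2 than in c1 at stage 3 and in c1 than in c2 at stage 4, while their orders were opposite at early stage 5. There *fuchi* had 904 and 1543 CPM at stage 3, 1604 and 791 CPM at stage 4, and 904 and 1002 CPM at early stage 5. Thus *fuchi* was close to its stage-3 level in early stage-5 c cells. In contrast *Pt-twist*, named after a bHLH factor of mesoderm in flies, had 206 and 563 CPM in stage-3 c cells. It had 131 and 3.26 CPM at stage 4 and 4.38 and 6.94 CPM at early stage 5. Its fall from stage 3 to 4 passed edgeR's quasi-likelihood test (log2 difference -2.60, adjusted p = 0.0270). It did not pass with DESeq2's Wald test or edgeR's likelihood ratio test. The study chose *Pt-twist* as high in these stage-3 c libraries, so a fall from them is favoured by that choice.

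**Figure D2:**
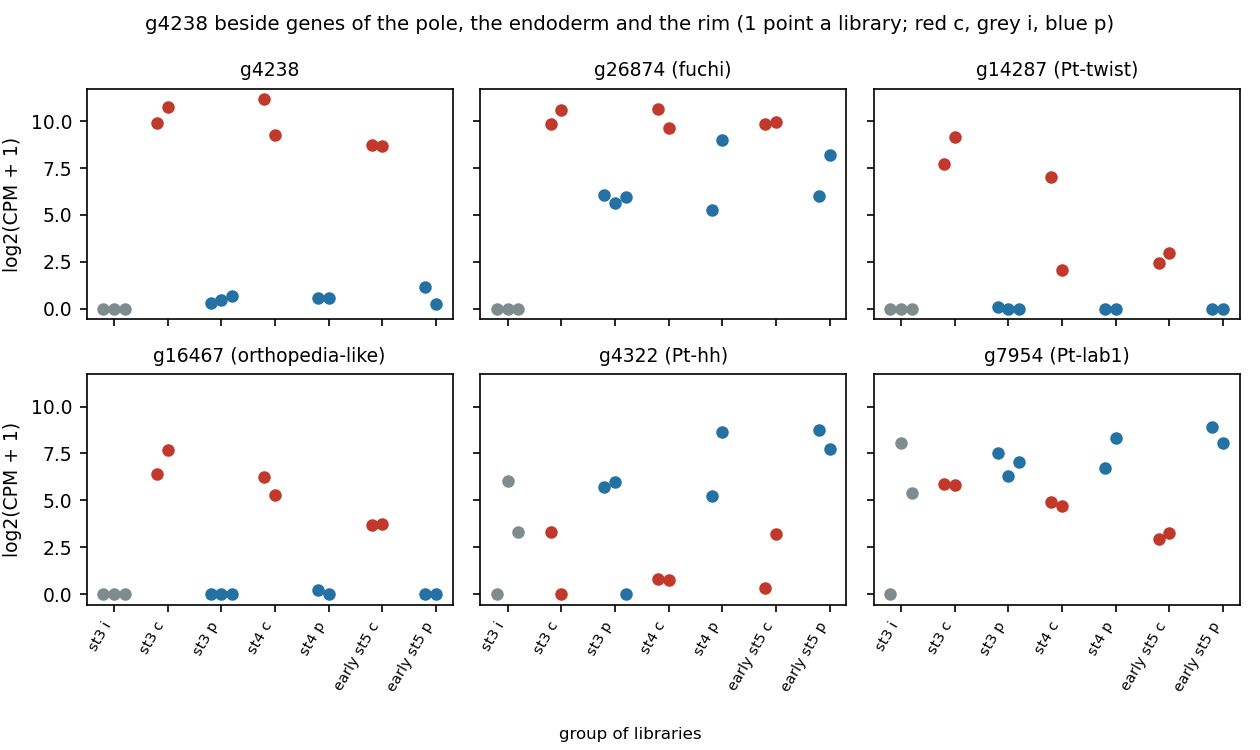
log2(CPM + 1) of *g4238* and of 5 genes of the germ disc in each library, with groups along the x axis. *g4238*, *Pt-twist* and *g16467* are near 0 in all p libraries, *fuchi* is at 37.5 CPM or more in all of them, and *Pt-hh* and *Pt-lab1* are higher in p than in c cells at the later stages.

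Beside it stood a list of 12 germ-disc genes, 1 of them alpha-catenin. The list was chosen with earlier results of these data known, and the study picked *fuchi* and *Pt-twist* on its stage-3 libraries. Its shares of calls are therefore no measure of enrichment. At stage 4, 11 could be tested and 2 passed, against 0.486% of all genes. *fuchi* was higher in c cells (log2 difference 2.01, adjusted p = 0.0151), a call that held in 5 of 8 other settings and was lost with DESeq2's Wald test and edgeR's likelihood ratio test (adjusted p from 0.00309 to 0.784 over the 8). Also at stage 4, *Pt-hh*, the hedgehog ligand of the disc rim, was lower in c cells (edgeR quasi-likelihood test, log2 difference -8.31, adjusted p = 0.00238). DESeq2's Wald test called *Pt-hh*, *Pt-twist* and *Pt-GATA5* (*g8337*) at that stage. At early stage 5, 2 of 12 passed, against 0.812% of all genes. *fuchi* was not among them but passed in 4 of 8 other settings, with log2 differences of 2.37 to 2.58 over the 8. *Pt-msx1*, a homeobox gene, was higher in c cells (log2 difference 4.84, adjusted p = 0.0157), a call that held in 6 of 8 other settings, and *Pt-hh* was lower (log2 difference -6.24, adjusted p = 0.00428). The calls of *Pt-hh* held in 7 of 8 other settings at each stage. The study's own lists from the later stages also hold *Pt-hh*. From stage 3 to 4, 3 of 12 changed in c cells, against 3.77% of all genes. *Pt-dpp*, the BMP ligand that cumulus cells send, went from no count to 185 and 99.9 CPM, at least 493-fold higher (adjusted p = 0.000732). *Pt-fkh*, a forkhead gene that the paper uses as a marker of peripheral mesoderm and endoderm, went from no count to 227 and 39.9 CPM. This was at least 461-fold higher (edgeR quasi-likelihood test, adjusted p = 0.000816). Of these 3, *Pt-twist* was the one that fell, from the stage-3 libraries on which it had been chosen. *Pt-otd* (*g9172*) went from 12.5 and 52.9 CPM in stage-3 c cells to no count in stage-4 c cells. DESeq2's Wald test called this fall, beside *Pt-dpp* and *Pt-fkh*, and edgeR's quasi-likelihood test did not. *g4238* had 948 and 1727 CPM in the stage-3 c libraries, where *Pt-dpp* and *Pt-fkh* had no count. The median log2 difference of the list from stage 3 to 4 was 0.89, against 0 over all genes tested, and at stage 4 between c and p cells it was 1.79, against 0.07. This stage-4 median is the value of alpha-catenin itself, which had no count in stage-4 p1.

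Among the 17 other Ets-family models, none reached the RPKM of *g4238* in any c library, and none was called in any comparison by edgeR's quasi-likelihood test. They stand for fewer genes, since the 18 models together map to 13 NCBI genes, and reads of one gene may be split between its models. In every c library *g4238* was the Ets model with the most RPKM, at 80.8% and 75.5% of the family sum at stage 3, 94.6% and 64.5% at stage 4, and 47.3% and 44.7% at early stage 5. In p libraries it made up 0.0446% to 0.449% of that sum. No count was found for 3 models, 7 had counts in 1 or 2 libraries, 5 had counts in 5 to 14 libraries, and 2 had counts in all 16.

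The 2 models found everywhere, *g3964* and *g3965*, are neighbours on scaffold 516 and belong to the same NCBI gene, a C-ets-2-like gene (ETS2 of vertebrates responds to Ras-ERK signalling). *g3964* had 38.6, 43.8 and 7.62 RPKM in i, 33.7 and 88.6 in c and 35.9, 68.7 and 71.3 in p cells of stage 3. At stage 4 it had 0.205 and 47.2 RPKM in c and 9.32 and 21.4 in p cells. The early stage-5 libraries held 55.6 and 70.9 RPKM in c and 36.8 and 41.6 in p cells. Its regions overlapped at stages 3 and 4. *g3965* was steadier, with 37.4 to 41.8 RPKM in i, 19.5 to 27.0 in c and 10.2 to 15.2 in p cells of stage 3, in that order without overlap. The edgeR quasi-likelihood test gave no call for it in comparison III of i with c and p cells (log2 difference 1.16, standard error 0.72, adjusted p = 0.904), which also sets i cells of one mother against cells of another. At stage 4 it had 20.7 and 11.1 RPKM in c and 7.26 and 8.65 in p cells, so that c again lay above p, but the difference did not pass (log2 difference 0.89, standard error 1.25, adjusted p = 0.881). At early stage 5 it had 21.9 and 29.0 RPKM in c and 23.1 and 22.0 in p cells, which overlapped.

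*g9766*, named Elk-1 after the mammalian partner of serum response factor that ERK phosphorylates, was the third most abundant of the other models. It had 12.1 and 13.6 RPKM in c and 11.1, 5.41 and 0.0205 in p cells of stage 3, and 5.00 and 13.1 in c and 8.93 and 6.67 in p cells of stage 4. The early stage-5 libraries had 35.1 and 18.3 RPKM in c and 43.4 and 45.5 in p cells, so that both p libraries stood above both c libraries. The difference did not pass (log2 difference -0.75, standard error 0.38, adjusted p = 0.652). *g9766* was the highest of the 18 models in the 2 early stage-5 p libraries. In the other p and the i libraries *g3964* or *g3965* was highest.

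*g14546*, like *Drosophila* pokkuri (yan), a repressor that Ras-ERK signalling removes, came closest to the regional pattern of *g4238* among its relatives. It had 19.7 and 8.70 CPM in stage-4 c cells and no count in either p library, at least 32.0-fold higher. It had 11.9 and 2.63 CPM in c and 0 and 0.192 CPM in p cells at early stage 5. It had no count in stage-3 c cells, where *g4238* was high. The c-p difference did not pass at stage 4 (adjusted p = 0.881) or at early stage 5 (adjusted p = 0.681). Pearson's r with *g4238* over the 16 libraries was 0.68, rank 169 of the genes scored, and the other 6 Ets models abundant enough to be scored had -0.07 to 0.38.

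**Figure D3:**
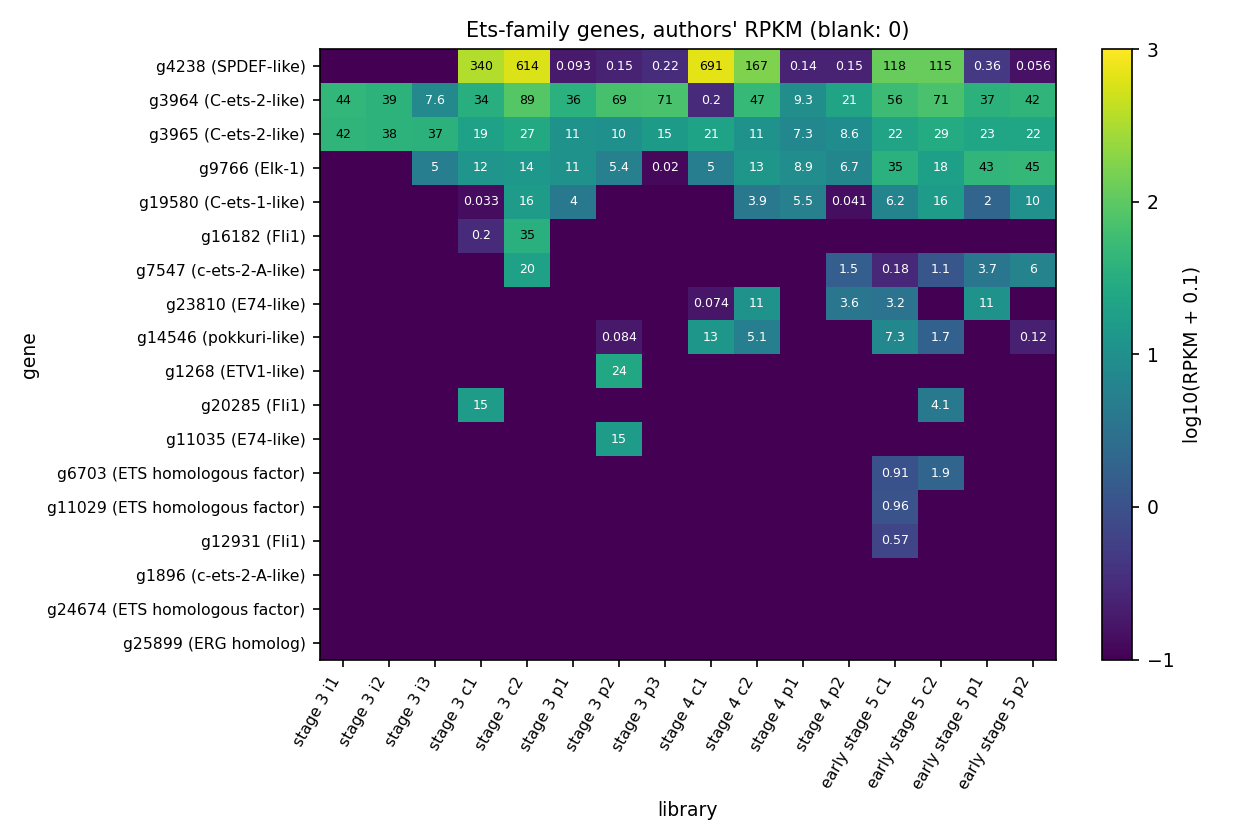
The authors' RPKM of 18 Ets-family gene models (rows, by mean level) in the 16 libraries (columns), with colour for log10(RPKM + 0.1) and the RPKM printed in each cell above 0. *g4238* reaches 115 to 691 RPKM in the c libraries, and no other model exceeds 88.6 RPKM.

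The remaining models were sparse. The C-ets-1-like *g19580* had counts in 10 libraries and its highest level in early stage-5 c2, with 51.7 CPM against 20.6 in c1 and 6.38 and 32.9 in p cells. The c-ets-2-A-like *g7547* had 44.9 CPM in stage-3 c2 and none in c1, and 10.6 and 16.9 CPM in early stage-5 p against 0.516 and 3.11 in c cells (log2 difference -2.92, unadjusted p = 0.0489, adjusted p = 0.606). Of the models of ETS homologous factor, an epithelial factor in mammals, *g6703* had 4.13 and 8.61 CPM in early stage-5 c cells and no count elsewhere, at least 10.5-fold over the p libraries of that stage. *g23810*, like the *Drosophila* ecdysone-induced E74, had 25.6 CPM in stage-4 c2 and 24.5 CPM in early stage-5 p1 and at most 7.12 CPM elsewhere. Several models were seen in essentially 1 library, such as the ETV1-like *g1268* in stage-3 p2 (27.5 CPM) and the Fli-1 model *g16182* in stage-3 c2 (30.8 CPM, with 0.172 in c1). With 10 to 100 cells per library, such values have no second library to set against them.

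By comparison, 0 of 9 tested Ets models passed edgeR's quasi-likelihood test in each of comparisons I (c against i and p cells), II (p against c and i) and III (i against c and p) at stage 3, where 0.396%, 0.101% and 0.184% of genes passed. The count was 0 of 7 at stage 4 (0.486% of all genes passed), 0 of 10 at early stage 5 (0.812%), 0 of 13 in c cells from stage 3 to 4 (3.77%) and 0 of 13 from stage 4 to early stage 5 (0.363%). With shares this small, 0 of 7 to 13 models says little about the family. At an unadjusted p under 0.05 there was 1 model in comparison I, where 573 of 10860 genes had such a p, and 1 at early stage 5, where 968 of 11825 had. It was *g7547* in each case, and there was none in the others. DESeq2's Wald test called *g7547* in comparison I (adjusted p = 6.04e-09), a gene seen in c2 alone, and *g19580* in comparison III (adjusted p = 3.19e-09), and none in the other 5. The median log2 difference of the tested models between c and p cells was 0.72 at stage 4, against 0.07 over all genes, and 0.74 at early stage 5, against 0.18. With the genes of an empty group set at their bound of 3 counts per library, the early stage-5 median was 0.51. The other list medians given here did not move.

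The genes whose profile was most like that of *g4238* were found by Pearson's r of log2(CPM + 1) over the 16 libraries, among the 9723 genes that reached 10 CPM in 2 or more libraries. The r is a description over libraries that share mothers and depth, and it mainly reflects the split between c and the other libraries. The first was *g887*, which has no product name (r = 0.98). It had 52.2 and 22.9 CPM in c cells of stage 3, 106 and 40.7 CPM at stage 4 and 28.1 and 59.8 CPM at early stage 5, and at most 0.213 CPM elsewhere. The orthopedia-like homeobox gene *g16467* (r = 0.97) had 84.9 and 201 CPM in the c libraries of stage 3, 74.9 and 37.7 CPM at stage 4 and 12.1 and 12.2 CPM at early stage 5. The others were *g132* (0.97), the mitochondrial carrier-like *g7615* (0.97), the RING finger gene *g22384* (0.96), *g8110* (0.95), the BMP-binding endothelial regulator-like *g2323* (0.94), *g17735* (0.94), the runt-related *g14521* (0.92) and the ankyrin repeat gene *g1767* (0.91). In total 11 genes had an r of at least 0.9.

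Within the 6 c libraries alone these genes parted. r with *g4238* was 0.88 for *g16467* and 0.85 for *Pt-twist*, which ranked 15 over all libraries, but 0.27 for *g887*, 0.08 for *g2323* and -0.46 for *g7615*. *g2323* and *g1767* had more in stage-4 c cells (249 and 131 CPM, and 408 and 245 CPM) than in stage-3 c cells (14.2 and 44.5 CPM, and 3.45 and 76.2 CPM). *g4238* had 2269 and 618 CPM at stage 4 and 948 and 1727 CPM at stage 3, which overlap. By Spearman's rho, 5 of the 10 genes were still among the first 10.

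**Figure D4:**
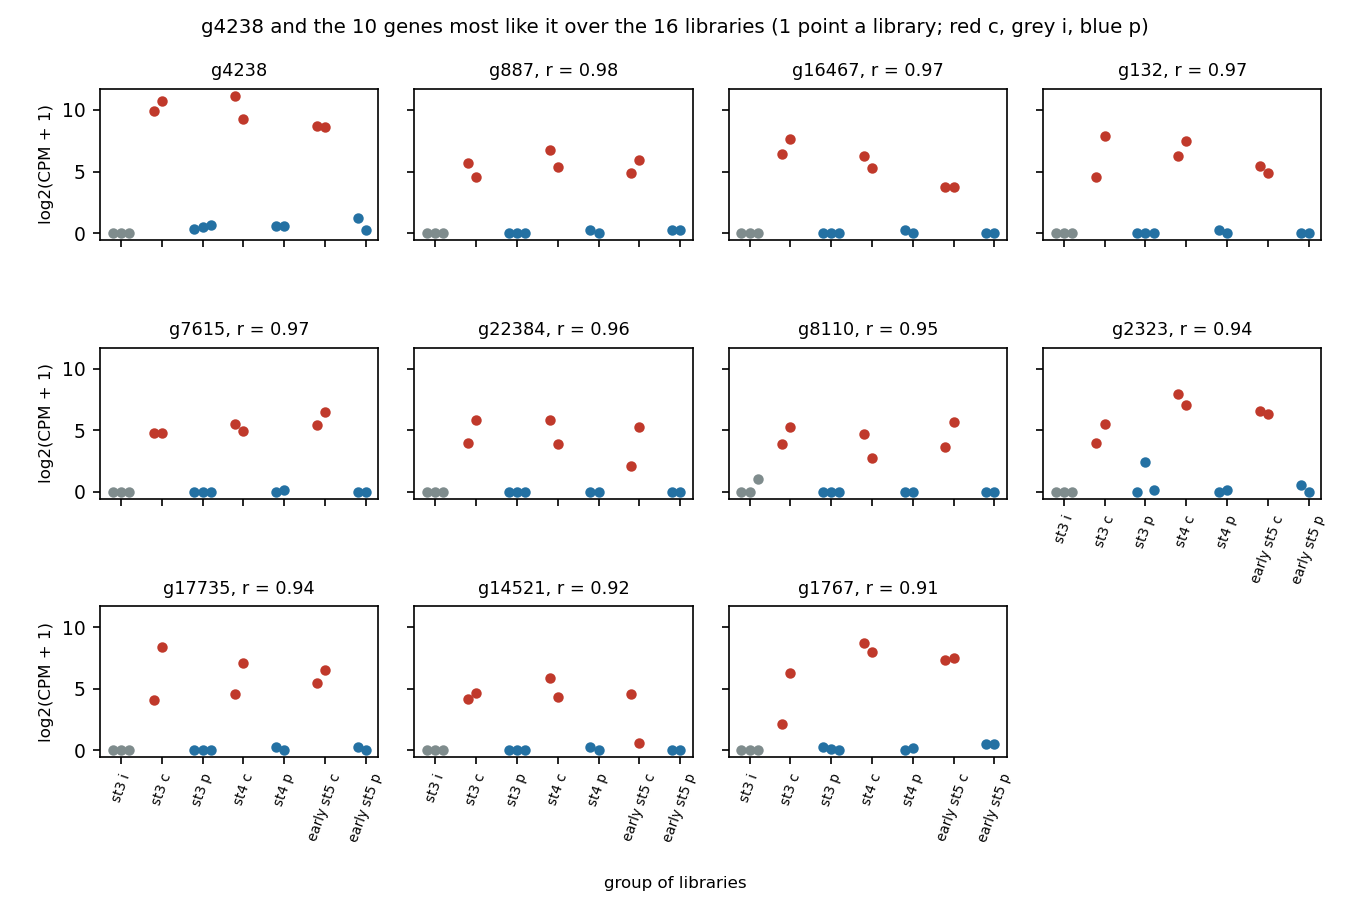
log2(CPM + 1) in each library for *g4238* and the 10 genes with the highest r, with groups along the x axis. In all 11 panels the c libraries lie above the i and p libraries, by little for *g14521*, whose early stage-5 c2 value is 0.479 CPM, and for *g2323*, which has 4.42 CPM in stage-3 p2.

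A stricter pattern, at least 10 CPM in each of the 6 c libraries and at most 1 CPM in each of the 10 others, was met by 5 of the 3101 genes with at least 10 CPM in every c library: *g17735*, *g132*, *g16467*, *g887* and *g7615*. *g4238* missed it by the 1.28 CPM of early stage-5 p1, and was the 1 gene with a single i or p library between 1 and 2 CPM. It also had 28 counts over the 10 i and p libraries, where the 5 genes had 1 to 3. Their c means were 42.4 to 108 CPM, against 1065 CPM for *g4238*. All 5 are among the 10 genes of highest r, which the pattern makes likely, since r mainly reflects the same split of libraries.

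Genes next to *g4238* did not share its pattern. The scaffold holds 2 models before it, *g4236* and *g4237*, at 167375 and 158469 bases, and neither had a count in any library. The next model after it, *g4239*, 37375 bases away, had none either. *g4240*, a SETDB1-like histone methyltransferase on the minus strand 45526 bases away, was found in all 16 libraries with 126 to 728 CPM, and its c and p libraries overlapped at all 3 stages. *g4241*, a further SETDB1-like model 115882 bases away, had counts in 5 libraries and at most 9.23 CPM.

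Of the 19 genes named for the Ras-ERK cascade, through which many Ets proteins are controlled, none passed between c and p cells by edgeR's quasi-likelihood test. This was 0 of 13 tested at stage 4 (0.486% of all genes passed), with 3 at an unadjusted p under 0.05 against 445 of 10074 genes, and 0 of 16 at early stage 5 (0.812%), with 2 against 968 of 11825. In comparisons I to III it was 0 of 13 each (0.396%, 0.101% and 0.184%), with 2, 0 and 1 at an unadjusted p under 0.05 against 573, 589 and 535 of 10860 genes. DESeq2's Wald test called none of them in comparisons I to III, but 3 at stage 4 (*g19511*, *g26565* and *g5409*) and 2 at early stage 5 (*g18901* and *g26565*). Among the receptors, the FGF receptor 4 gene *g26565* had 253 and 141 CPM in c and 0 and 16.2 CPM in p cells of stage 4 (log2 difference 4.32, standard error 1.21, adjusted p = 0.0647), and 75.8 and 137 CPM in c and 22.1 and 16.7 CPM in p cells of early stage 5 (log2 difference 2.43, adjusted p = 0.105). It passed in 3 of 8 other settings at each stage. It had no count in stage-3 c cells, and its rise of at least 681-fold to stage 4 passed (adjusted p = 0.000179). The EGF receptor model *g18901* had 17.3 and 34.2 CPM in early stage-5 c cells and no count in p cells (edgeR quasi-likelihood test, adjusted p = 0.201). This difference passed in 3 of 8 other settings.

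Among the cascade's inner members, *g5409*, like kinase suppressor of Ras 2, a scaffold for Raf, MEK and ERK, had 193 and 5.80 CPM in stage-4 c cells and no count in p cells or at stage 3. Its c-p difference at stage 4 passed in 3 of 8 other settings. The rise of *g5409* in c cells from stage 3 to 4 passed (edgeR quasi-likelihood test, adjusted p = 0.0192). This rise lay almost wholly in stage-4 c1, the library in which *g4238* was highest. DESeq2's Wald test and edgeR's likelihood ratio test did not call it. The likelihood ratio test called the rise of *g26565*, for which DESeq2 gave no adjusted p. The neighbouring ERK models *g27557* and *g27558*, which belong to the same NCBI gene, were found in c and p cells of every stage. *g27557* had 0 to 53.8 CPM in c and 0 to 56.7 CPM in p libraries, and *g27558* had 0.107 to 68.8 CPM in c and 13.5 to 116 CPM in p libraries. The lowest c values were both in stage-3 c2. In comparison I the log2 difference of *g27558* was -2.31 (standard error 0.99, edgeR quasi-likelihood test, unadjusted p = 0.0191, adjusted p = 0.789). The Raf gene *g18826* had 0.107 to 101 CPM in c and 4.91 to 106 CPM in p libraries. No count was found for *g10124* and *g22820*, which are FGF receptor 2-like models of 1 NCBI gene, or for the ERK-like *g25456*. The 2 genes that rose from stage 3 to 4, *g26565* and *g5409*, were the only ones of 16 tested to pass edgeR's quasi-likelihood test in that comparison, against 3.77% of all genes. DESeq2's Wald test called *g19511* there and no other of the list. From stage 4 to early stage 5, 0 of 16 passed, with 1 at an unadjusted p under 0.05, against 0.363% of all genes and 334 of 13511 at such a p. DESeq2's Wald test called none there either. The median log2 difference of the list between c and p cells was 0.10 at stage 4 and 0.28 at early stage 5, against 0.07 and 0.18 over all genes.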

How the data were processed

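RNA-seq libraries of isolated germ-disc cells were used as deposited. After trimming, BLAT alignment to Ptep_1.0 and a filter on coverage and identity, the authors counted the reads per AUGUSTUS model (aug3.1) by htseq-count (the submitters' processing notes give HTSeq 0.5.4p5). The deposited count table holds raw counts per gene. A second table holds RPKM computed by the authors, which was used to compare levels between genes and not for tests. No count column was left without a sample (0 unmatched). The 5 rows without a gene, filled for early stage 5 only with 8.18% to 8.85% of the counts, were left out.

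Every gene that reached 1 CPM in any library of a fit was tested with edgeR 4.0.16 (R 4.3.3), by TMM and the quasi-likelihood test (legacy off), and p-values were adjusted by Benjamini-Hochberg across every gene of that fit. c and p cells were compared within a stage. Changes between stages were contrasts of 7 groups over all 16 libraries. A positive log2 difference means higher in the first-named group or at the later stage. Its standard error is its size divided by the square root of F. The statistical test was tried on simulated data. Alternatives were the likelihood ratio test, DESeq2 1.42.0, DESeq2's size factors in edgeR, all genes kept, genes with 10 or more counts in 2 or more libraries, other libraries in the fit, the replicate number as a block, a prior count of 2 and each library left out. The earlier (legacy) form of the quasi-likelihood test, and leaving out libraries in the search for similar genes, were added after seeing the data.

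Named were *g4238*, the Ets family by product name, the 10 genes of highest r, the genes of the strict c pattern, the nearest models on the scaffold (at most 3 on each side), 12 germ-disc genes and 19 Ras-ERK genes by product name. No product matched Grb2, and Ras itself was not searched for. The gene and the lists were chosen with earlier results of these data known. Libraries of a group are separate pools of cells, and nothing says that they came from separate embryos, so p-values measure the spread between pools, which may be technical.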

Additional observations from a re-analysis of the deposited data

Results flagged for a closer look

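The Elk-1 model *g9766* is given here because its c and p libraries were apart in opposite directions at stages 3 and early 5. It was picked from the 18 Ets models, *g4238* included. At stage 3, the c libraries lay above the p libraries in 4 of these models and below in 0. The 4 include *g4238*, chosen for this pattern, and *g16182*, which had only 0.172 CPM in c1. At early stage 5 they lay above in 4 and below in 2. How often the libraries of other genes part, at 1 stage or in opposite directions, was not tested. These counts therefore show no lean of the family. The reversal of *g9766* can therefore not be told from chance. On the scale of log2(CPM + 1) of the group means, c cells were 1.21 above p cells at stage 3, with 51.2 and 58.0 CPM in c and 47.9, 20.9 and 0.0851 CPM in p libraries. At early stage 5 the difference was -0.71, with 190 and 96.4 CPM in c and 232 and 236 CPM in p libraries. The lower c library and the highest p library of stage 3 were close, and the difference between the stages was not tested. The 2 stages came from different mothers.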

How the results depend on the processing

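The higher level of *g4238* in c than in p cells kept its direction under every alternative, and its call at both later stages except where p-values are given here. With 1 library left out, the log2 difference ranged from 10.13 to 12.06 at stage 4, with the call lost without p1 (11.46) or p2 (11.27), and from 8.28 to 10.82 at early stage 5, with the call lost in each case. Where a fit is left with 1 library in a group, that library is assumed to vary like the other group. The change of *g4238* in c cells from stage 3 to 4, which passed under none of them, ranged from -1.11 to 0.77 on the log2 scale with 1 library left out and was -0.26 without stage-3 c1. The fall from stage 4 to early stage 5 ranged from -2.46 to -0.58 with 1 library left out. It passed with DESeq2's size factors, with all genes kept and with a prior count of 2, and kept its size but not its call with DESeq2's Wald test (-1.97), with a likelihood ratio test in edgeR (-1.81), with the filter of 10 counts (-1.80), only the c groups in the fit (-1.82) and the legacy quasi-likelihood fit (-1.81, adjusted p = 0.132). Why the call was lost in these fits was not tested. The leave-one-out fits and the fit with only the c groups also held fewer libraries.

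The replicate numbers gave no pairing by their correlations (-0.0232 to 0.0324 between same-numbered libraries' deviations). With the replicate number as a block, the log2 difference of *g4238* was 11.21 at stage 4 (adjusted p = 6.13e-06), 9.09 at early stage 5 (adjusted p = 0.116), -0.037 in c cells from stage 3 to 4, which turns the direction, and -1.71 from stage 4 to early stage 5 (adjusted p = 0.112). The count of all genes called with this block was 23, 8 and 4 in comparisons I, II and III, 8 at stage 4, 0 at early stage 5, where 96 were called without it, and within 1.5 times the count without it for both changes in c cells.

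Counts of all genes called moved with the test, the libraries in the fit and the block. In the order of comparisons I, II and III, stage 4, early stage 5, c cells from stage 3 to 4 and from stage 4 to early stage 5, they were 43, 11, 20, 49, 96, 510 and 49 as reported, 11, 7, 21, 28, 301, 72 and 27 with the likelihood ratio test, 559, 526, 676, 276, 411, 927 and 303 with DESeq2's Wald test, 22, 19, 41, 73, 331, 295 and 100 with the legacy quasi-likelihood fit, and 101, 21, 32, 57, 32, 441 and 0 with other libraries in the fit. With 1 library left out they were 6 to 68, 5 to 15, 12 to 27, 0 to 45, 0 to 1, 257 to 346 and 14 to 33. The number of other Ets models called was 0 under every alternative apart from DESeq2's Wald test, which gave 1 in comparison I and 1 in comparison III. Of the 10 genes most like *g4238*, 5 were among the first 10 by Spearman's rho, 7 with 10 CPM added, 8 with c and p libraries only, and 7 to 10 with 1 library left out. Depth limits the p cells, where *g4238* had 1 to 7 counts.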
